A study of Macaca fascicularis and Macaca mulatta and Papio anubis with 20 samples.

Results

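PENK-positive spots were capture spots on sections of cynomolgus macaque (*Macaca fascicularis*) dorsal root ganglion that held at least 2 transcripts of PENK, the gene of the opioid peptide precursor proenkephalin. They were compared with PENK-free spots, which held 0. Only spots under tissue with at least 2000 unique molecular identifiers (UMIs, each marking 1 captured transcript) were eligible. Of 7814 eligible spots on 15 sections, 62 were PENK-positive, 178 held exactly 1 PENK UMI and belonged to neither class, and 7574 were PENK-free. The spots were chosen by their measured PENK count, so PENK values are a description and no test was made of them.

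Gene expression had been measured with Visium, an assay that captures RNA from a section on an array of barcoded spots. Each spot covers a small patch of tissue with parts of several cells, so a gene high in PENK-positive spots need not come from the cell that made PENK. The macaque sections came under 4 title codes, a female and a male code in batch 1 and a female and a male code in batch 2, with 4 sections each. A title code is called a specimen here, although the labels do not say whether it stands for 1 animal or 1 ganglion, and the specimens are written female 1, male 1, female 2 and male 2, the number giving the batch. All specimens were fresh frozen ganglia from a commercial supplier with no labelled treatment, strain or age, cut at 10 µm with 100 µm between sections and permeabilised for 12 min. Section 3 of male 2 was not analysed here. Where nothing says that sections come from separate animals, p-values measure at most the spread between these samples.

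Proenkephalin is cut by prohormone convertases into enkephalins, short peptides that act on delta and mu opioid receptors and dampen the release of transmitter from sensory terminals. In sensory ganglia PENK is made by a minority of neurons, and a class of nociceptors (neurons that detect painful or damaging stimuli) in human ganglia has been named after it. The neuron cell bodies lie among satellite glia, Schwann cells, fibroblasts, vessels and macrophages, so a spot reads a mixture of these cells.

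PENK-positive spots were few and unevenly placed. Female 1 held 25, of which 0 lay in section 1, 1 in section 2, 17 in section 3 and 7 in section 4. Male 1 held 8, all in section 4. Female 2 held 29, with 1, 7, 4 and 17 in sections 1 to 4, and male 2 held 0. As shares of eligible spots these were 1.299%, 0.317%, 1.25% and 0%. Both female specimens had more PENK-positive spots than either male one, but with 2 specimens a sex and different sections of each ganglion the sexes were not compared by a test.

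The 62 spots held 220 of the 398 PENK UMIs of all eligible spots, or 55.3%. Most were near the threshold: 28 held exactly 2 PENK UMIs, 13 held 3, 11 held 4 and 5 held 5, and the other 5 spots held 6, 8, 9, 10 and 23. The spot with 23 lay in section 4 of female 1. Over all eligible spots of a section, PENK lay between 0 and 21.4 CPM (UMIs scaled to a total of 1000000 UMIs), highest in section 4 of female 2. The other high sections were sections 4 and 3 of female 1, at 18.5 and 14.9 CPM, and section 4 of male 1 at 8.89 CPM. In the 3 analysed sections of male 2 there were 0, 2 and 0 PENK UMIs over 639, 249 and 155 eligible spots. Over all 1043 of them 0 PENK-positive spots allow a share of up to 0.288% (3 counts, counting error only). This limit is below the shares of both females and close to that of male 1. These sections were shallow, with medians of 3718, 2750 and 3795 UMIs per eligible spot, against 4815 to 9893 in the female sections. The part of depth in this difference was not tested. With spots thinned to equal depth, 0%, 0.803% and 0% of eligible spots of male 2 held PENK, from 0, 2 and 0 spots. In sections 1 to 4 these shares were 0%, 0.783%, 2.77% and 2.58% for female 1. For female 2 they were 0%, 2.15%, 0.549% and 3.53%. The specimens were not compared by a test at equal depth.

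**Figure D1:**
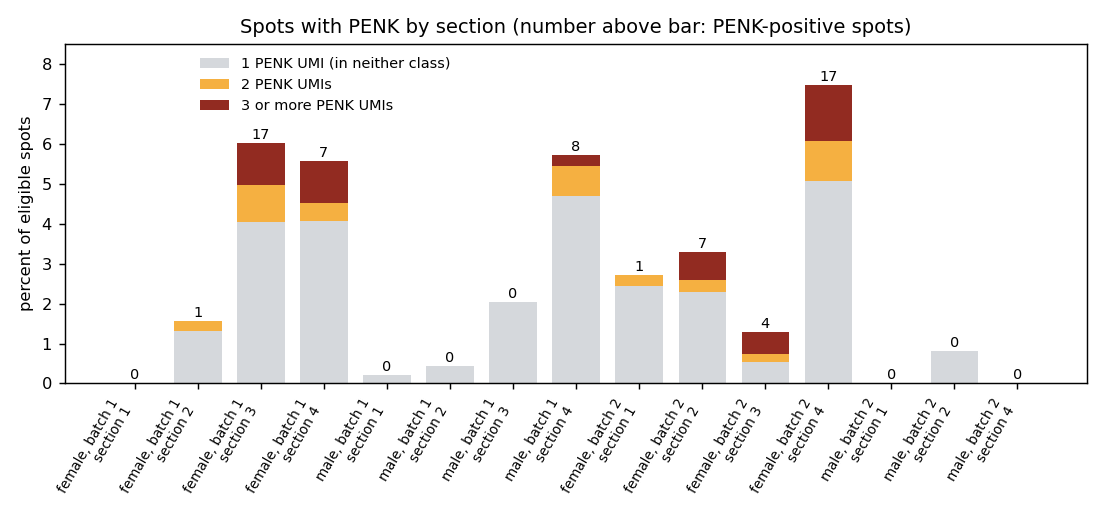
Percent of eligible spots (vertical axis) with 1, 2 or at least 3 PENK UMIs in each of 15 sections, with the number of PENK-positive spots above each bar. Sections 3 and 4 of female 1, section 4 of male 1 and section 4 of female 2 held 17, 7, 8 and 17 of the 62 spots.

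The neighbours of PENK-positive spots held PENK at a higher level than those of PENK-free spots. On the hexagonal grid a spot has up to 6 neighbours. The 291 eligible neighbours of PENK-positive spots held PENK at 27.2 CPM, and 4.81% of them were PENK-positive. The neighbours of PENK-free spots in the same sections held it at 9.84 CPM, and 1.36% of them were PENK-positive. Of the 62 spots, 13 (20.97%) had a PENK-positive neighbour, against 5.19% of PENK-free spots. The order was the same in each specimen: 3.05%, 8.51% and 5.31% of the neighbours of PENK-positive spots were PENK-positive in female 1, male 1 and female 2, against 1.56%, 1.197% and 1.26% around PENK-free spots. These shares are descriptions without a test.

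A measure made by the authors over whole sections covers the same gene. Moran's I is a score that is above 0 where neighbouring spots are alike. For PENK it ranged from -0.0087 to 0.0431 over the 15 sections that list PENK in the authors' deposited table. These 15 include section 3 of male 2, which was not analysed here, and leave out section 1 of female 1. The authors' deposited table gave an adjusted p under 0.05 for PENK in 2 of them, section 3 of female 1 (I of 0.0431) and section 4 of female 2 (I of 0.0349). These are the sections that held 17 PENK-positive spots each.

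For the comparison of genes, UMIs were summed over the PENK-positive spots and over the PENK-free spots of the same sections, per specimen. Only the 3 specimens with PENK-positive spots entered, with 4601 PENK-free spots (1630, 743 and 2228). The sections did not weigh alike in both sums. Section 4 of female 2 held 17 of its 29 PENK-positive but 656 of its 2228 PENK-free spots. For section 2 of female 1 these were 1 of 25 and 377 of 1630. Differences between sections can thus enter the class differences, and their part was not tested. With sections as samples and the section as block, 55 of 8292 genes were called, 46 of them among the 87 given next. The summed PENK-positive spots held 260274, 99076 and 215582 UMIs in female 1, male 1 and female 2, and the PENK-free spots 12611475, 5979200 and 15706862. PENK-positive spots were deeper, with a median of 8269 UMIs per spot (range 2239 to 24145) against 5981. The part of this depth difference in the gene results was not tested. With all spots thinned to 2000 UMIs, after the classes had been set at full depth, 7298 genes could be tested and 16 were called in place of the 87 given next, 15 of them among those 87 and ENTPD3, COLQ, TRPM8 and HPCAL1 among the 15. The PENK level of the PENK-positive sums was 376.5, 201.9 and 473.1 CPM.

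Of 9961 genes tested, 87 (0.873%) were called at an adjusted p under 0.05 in edgeR (quasi-likelihood F test, specimen as a block, Benjamini-Hochberg). Of these, 35 were higher in PENK-positive spots (0.351%) and 52 lower (0.522%). With 3 specimens edgeR fitted 1 spread to all genes, so its p-values do not measure each gene's own spread between specimens. The SE given beside a log2 ratio is the absolute ratio divided by the square root of F. It restates the edgeR test and does not measure that spread between specimens either. Counts by other tools are therefore given beside those of edgeR. DESeq2 called 16 genes, all among the 87, and limma-voom called 10, of which 8 were among the 87. The same 8 genes were called by all 3 tools, and all of them were higher in PENK-positive spots: ENTPD3, HPCAL1, COLQ, TRPM8, IFT57, ABCA4, SCTR and GRM3. The levels of the specimens did not overlap between the classes for 48 of the 87 genes, against 10.3% of all genes tested. Leaving out a specimen left 21 calls without female 1, 48 without female 2 and 58 without male 1, and ENTPD3, HPCAL1, COLQ, TRPM8 and IFT57 passed in each. Leaving out 1 section left 27 calls without section 4 of female 2, 50 without section 3 of female 1 and between 58 and 106 otherwise.

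**Figure D2:**
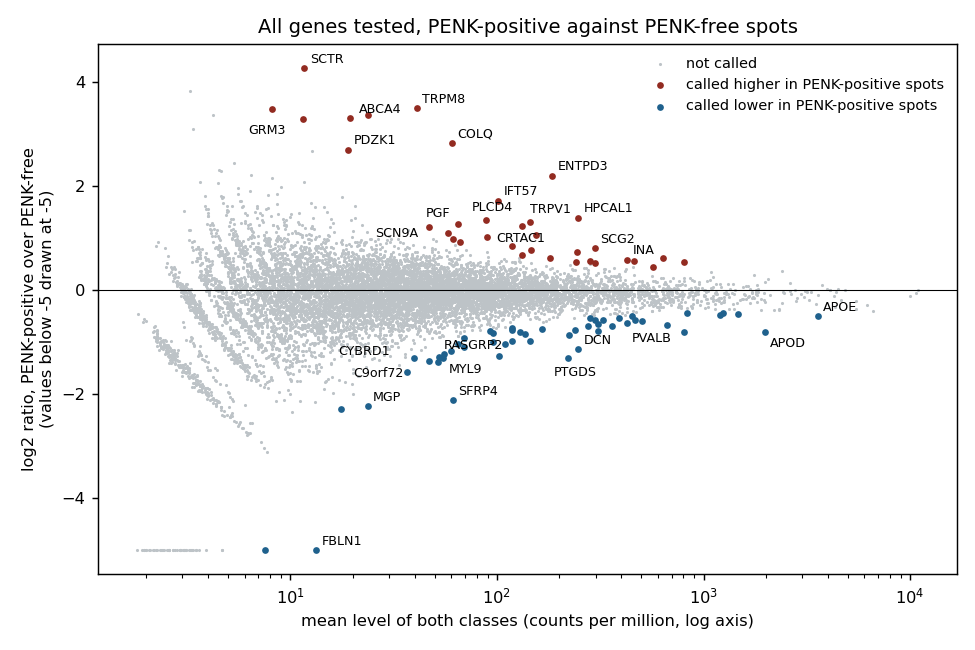
Mean level of both classes in CPM (horizontal, log axis) against the log2 ratio of PENK-positive over PENK-free spots for the 9961 genes tested, with the 87 called genes in colour. ENTPD3, at a log2 ratio of 2.19, and TRPM8, at 3.49, lie well above 0, and FBLN1, with 0 UMIs in PENK-positive spots, is drawn at the lower edge.

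ENTPD3 had the smallest p-value. It encodes an ectonucleotidase, a surface enzyme that breaks down extracellular ATP and ADP. Its level in PENK-positive spots was 188 CPM in female 1, 384 in male 1 and 353 in female 2, against 52.7, 70.9 and 60.9 CPM in PENK-free spots. Every PENK-positive value lay above every PENK-free one. The means were 308 ± 105 and 61.5 ± 9.15 CPM (SD, n = 3), a log2 ratio of 2.19 (SE 0.16, edgeR adjusted p = 5.93e-37). Of the 62 spots, 49 (79.0%) held ENTPD3, against 30.3% of PENK-free spots and 21.4% of the 1153 PENK-free spots poorest in neuron markers. After every spot was thinned to 2000 UMIs the shares were 38.7% (exact 95% interval 26.6 to 51.9), 10.8% and 10.1%. The interval covers counting error over the pooled spots only, not the spread between specimens. The median depths of these 3 sets before thinning were 8269, 5981 and 3585 UMIs.

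TRPM8, the ion channel that cold and menthol open, was nearly as regular. PENK-positive spots held it at 65.3, 80.7 and 78.9 CPM in female 1, male 1 and female 2, from 17, 8 and 17 UMIs. PENK-free spots held it at 6.58, 10.7 and 3.76 CPM. The classes did not overlap, and the means of 74.97 ± 8.42 and 7.01 ± 3.49 CPM (SD, n = 3) differed by a log2 ratio of 3.49 (SE 0.39, edgeR adjusted p = 1.71e-15). TRPM8 was found in 25 of the 62 spots (40.3%), against 3.76% of PENK-free spots. After thinning it was found in 17.7% (exact 95% interval 9.20 to 29.5) against 1.00%. This interval too covers counting error over the pooled spots only. Seen from the other side, 216 spots of the compared sections held TRPM8, of which 43 held PENK and 25 (11.6%) were PENK-positive.

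COLQ and HPCAL1 had smaller p-values than TRPM8. COLQ encodes the collagen tail that anchors acetylcholinesterase, the enzyme that clears acetylcholine. Its level was 92.2, 161 and 69.6 CPM in PENK-positive spots of female 1, male 1 and female 2, and 13.8, 18.7 and 8.85 CPM in PENK-free spots. The classes were far apart, with a log2 ratio of 2.83 (SE 0.30, edgeR adjusted p = 3.61e-18). HPCAL1, a calcium sensor protein of neurons, stood at 369, 273 and 436 CPM against 128, 142 and 137 CPM, a log2 ratio of 1.39 (SE 0.14, edgeR adjusted p = 6.41e-20). It was the one of these 4 genes that was higher in PENK-positive spots in all 8 sections, against 7 of 8 for ENTPD3 and COLQ and 6 of 8 for TRPM8. The section in which ENTPD3, COLQ and TRPM8 were all lower, section 2 of female 1, held a single PENK-positive spot with 0 UMIs of each.

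The other 4 genes called by all 3 tools rested on between 12 and 86 UMIs in PENK-positive spots. IFT57, a part of the transport machinery of cilia, was at 157 ± 31.6 CPM in PENK-positive and 45.0 ± 14.1 CPM in PENK-free spots (SD, n = 3), a log2 ratio of 1.71 from 86 UMIs. ABCA4, a lipid transporter best known from photoreceptors, was at 35.3 ± 15.4 and 3.62 ± 0.285 CPM, a log2 ratio of 3.30 from 22 UMIs. SCTR, the secretin receptor, was at 22.4 ± 8.20 and 0.967 ± 0.411 CPM, a log2 ratio of 4.26 from 12 UMIs. GRM3, a metabotropic glutamate receptor, was at 20.6 ± 2.28 and 2.31 ± 1.36 CPM, a log2 ratio of 3.28, also from 12 UMIs. None of these 4 overlapped between the classes. By section, IFT57 and ABCA4 were higher in PENK-positive spots in 7 of 8, GRM3 in 5 and SCTR in 4. SCTR and GRM3 lost the call whenever a specimen was left out, with edgeR adjusted p of 0.0887 and 0.0757 without male 1, 0.0950 and 0.300 without female 2, and 0.415 and 0.628 without female 1. ABCA4 lost it without female 2 (edgeR adjusted p = 0.0776).

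**Figure D3:**
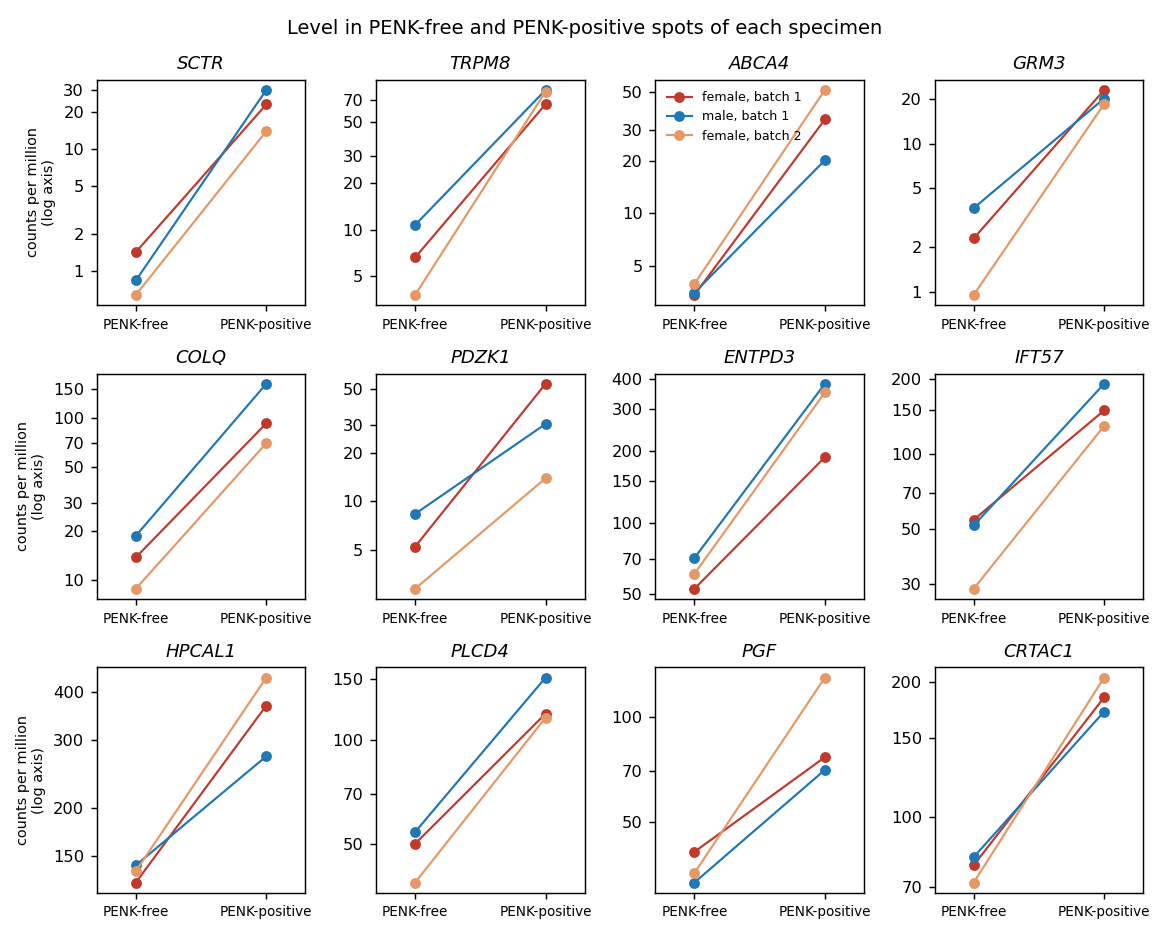
Level in CPM (log axis) of 12 genes in PENK-free and PENK-positive spots. These had the largest log2 ratios among called genes whose level was higher in every specimen. A symbol and at least 20 CPM in the higher class were also required. Each line joins the classes of 1 specimen. All lines rise, from 7.01 to 74.97 CPM in the mean for TRPM8 and from 61.5 to 308 CPM for ENTPD3.

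The other 4 genes completed the 12 largest differences with the same direction in every specimen. CRTAC1, a secreted matrix protein, was at 187 ± 16.4 CPM in PENK-positive and 77.2 ± 5.06 CPM in PENK-free spots (SD, n = 3), a log2 ratio of 1.23. PLCD4, a phospholipase C, was at 129 ± 19.6 and 47.7 ± 8.02 CPM (log2 ratio 1.34). PDZK1, a scaffold protein of membrane transporters, was at 32.7 ± 20.04 and 5.49 ± 2.76 CPM (log2 ratio 2.70), and PGF, placental growth factor, at 92.5 ± 32.6 and 36.9 ± 3.88 CPM (log2 ratio 1.26). DESeq2 also called CRTAC1, PLCD4 and PDZK1 but not PGF (DESeq2 adjusted p = 0.0665), and limma-voom called none of the 4. PGF lost its edgeR call without female 2 (adjusted p = 0.404) and PDZK1 without female 1 (adjusted p = 1.00). In 1 spot CRTAC1 reached 19 of its 109 UMIs, and without the highest spot of each specimen its level was 118, 90.4 and 181 CPM, still above the PENK-free values of 78.3, 81.6 and 71.7 CPM. The remaining genes called higher included the calcium pump ATP2B4 (log2 ratio 0.72), the Notch ligand DNER (0.55) and the neuronal serpin SERPINI1 (0.85), as well as 2 features without a symbol.

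Summed over specimens, 5 of these genes stood in the order of the number of PENK UMIs in a spot, given here without a test. They were called on the same spots, so their rise from 0 to at least 2 PENK UMIs repeats the call. Only the place of spots with 1 PENK UMI and the order within the last pair of classes are added. Over the spots of all 3 specimens with 0, 1, 2 and at least 3 PENK UMIs, ENTPD3 was at 59.6, 95.0, 233 and 326 CPM. TRPM8 was at 6.01, 17.6, 61.1 and 83.0 CPM, and COLQ at 12.4, 38.7, 72.6 and 115 CPM. HPCAL1 followed the same order, at 135, 179, 332 and 415 CPM, and so did IFT57, at 42.2, 61.2, 107 and 185 CPM. The spots with 1 PENK UMI, which lay just outside the threshold and entered no test, were above the PENK-free spots in each of these 5 genes when summed. Single specimens did not all keep the order. In male 1, where only 2 spots held at least 3 PENK UMIs, TRPM8 was at 10.7, 5.94, 101 and 33.2 CPM, the second value from 2 UMIs, and HPCAL1 at 142, 193, 275 and 266 CPM. In female 2 IFT57 was at 28.8, 44.8, 169.997 and 108 CPM, and in female 1 HPCAL1 was at 369.95 and 368 CPM in the last pair of classes. ENTPD3 and COLQ kept the order in all 3 specimens. Of the other genes called higher that were followed in this way, SCG2 and SCN9A kept the order when summed. CRTAC1 and TRPV1 did not, TRPV1 being at 90.5, 146, 275 and 214 CPM. Median depth was 5981, 7345, 8644.5 and 8183.5 UMIs, and its part in these levels was not tested.

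**Figure D4:**
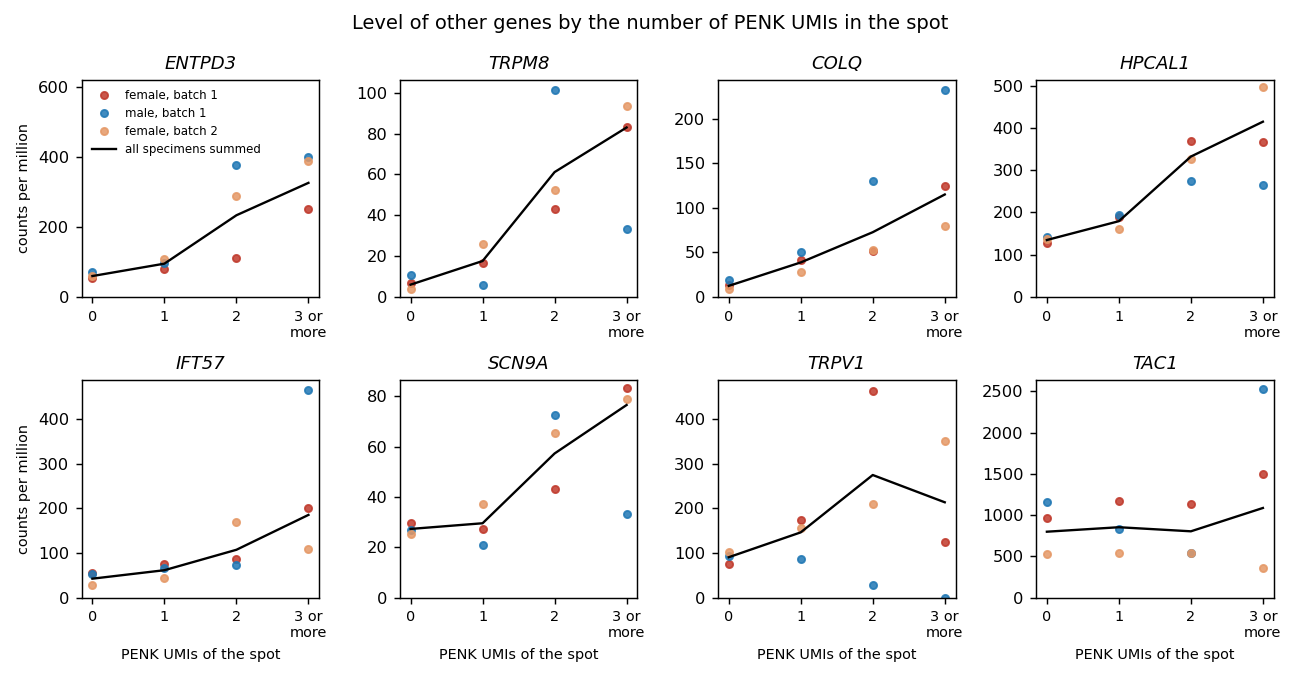
Level in CPM (vertical axis) of 8 genes in spots with 0, 1, 2 and at least 3 PENK UMIs; points are specimens and the line is the sum over them. ENTPD3 goes from 59.6 to 326 CPM and TRPM8 from 6.01 to 83.0 CPM, while TAC1, at 798, 852, 803 and 1085 CPM, shows no step between spots with 0 and 2 PENK UMIs.

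The genes did not all meet in the same spots. Of the 62 PENK-positive spots, 15 held ENTPD3, COLQ and TRPM8 together and 10 held none of them. COLQ was found in 31 and TRPM8 in 25. No single spot carried these differences: the spot with most ENTPD3 held 11 of its 163 UMIs, that with most COLQ 6 of 55, and that with most TRPM8 4 of 42. Without the highest spot of each specimen ENTPD3 stood at 172, 349 and 342 CPM and TRPM8 at 55.5, 55.1 and 62.0 CPM in female 1, male 1 and female 2.

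No other opioid gene was called. Of the 8 listed, 2 reached the test, the nociceptin receptor OPRL1 and the opioid growth factor receptor OGFR, and neither passed it. OPRL1 was at 31.4 ± 20.8 CPM in PENK-positive and 20.01 ± 9.60 CPM in PENK-free spots (SD, n = 3). POMC, the precursor of beta-endorphin, had 3 UMIs in PENK-positive spots and 77 in PENK-free spots. The mu receptor OPRM1 had 0 and 5 UMIs, the nociceptin precursor PNOC 0 and 11 and the dynorphin precursor PDYN 0 and 1. The delta and kappa receptors OPRD1 and OPRK1 had 0 UMIs in either class.

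Among the genes that process or package peptides, 1 of the 12 tested of 17 listed was higher and 0 were lower, against 0.351% and 0.522% of all genes tested. It was SCG2, secretogranin II, a protein of secretory granules, at 534, 212 and 362 CPM in PENK-positive spots of female 1, male 1 and female 2, against 264, 274 and 137 CPM in PENK-free spots. It was thus higher in 2 of 3 specimens and lower in the male one, with a log2 ratio of 0.80 (SE 0.14, edgeR adjusted p = 1.98e-06) that neither DESeq2 nor limma-voom called and edgeR did not call without female 1 or female 2 (adjusted p of 0.272 and 0.0955). PCSK1, a convertase that cuts proenkephalin, stood at 26.9, 30.3 and 37.1 CPM against 8.17, 7.53 and 12.7 CPM. Its classes did not overlap, but the log2 ratio of 1.60 (SE 0.47, edgeR adjusted p = 0.0710) missed the threshold, with 18 UMIs in PENK-positive spots. The convertase PCSK2 was at 36.6 ± 6.01 and 43.4 ± 5.58 CPM and the carboxypeptidase CPE at 435 ± 86.3 and 447 ± 12.4 CPM (SD, n = 3). The median log2 ratio of the list was 0.06, against -0.07 over all genes tested.

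Of 18 nociceptor genes 13 were tested, and 2 were called, both higher and both by edgeR alone, against 0.351% of all genes called higher. SCN9A, a sodium channel of nociceptors needed for human pain sensation, was at 65.3, 60.6 and 74.2 CPM in PENK-positive spots against 29.7, 26.9 and 25.5 CPM in PENK-free spots. The classes did not overlap, and the log2 ratio was 1.22 (SE 0.30, edgeR adjusted p = 0.0103), with 39 UMIs. DESeq2 and limma-voom did not call it, with adjusted p of 0.225 and 0.264, nor did edgeR without female 1 or female 2 (adjusted p of 0.282 and 0.288). The peptide genes were not called: TAC1, the substance P precursor, stood at 964 ± 483 and 884 ± 328 CPM and CALCB, a CGRP gene, at 1231 ± 197 and 1073 ± 119 CPM (SD, n = 3). The median log2 ratio of the list was 0.07.

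TRPV1, the channel opened by heat and capsaicin, was the second called nociceptor gene and the least even one. It stood at 277, 20.2 and 302 CPM in PENK-positive spots of female 1, male 1 and female 2, against 74.4, 94.0 and 102 CPM in PENK-free spots. The male specimen, with 2 UMIs, was thus below every PENK-free value and both females were above. The log2 ratio was 1.31 (SE 0.16, edgeR adjusted p = 2.73e-12), while DESeq2 and limma-voom did not call it. A single spot with 2 PENK UMIs in section 4 of female 1 held 35 of the 139 TRPV1 UMIs, and the 2 highest spots held 38.1%. Without the highest spot of each specimen the level was 154, 11.1 and 231 CPM, and without female 1 the edgeR adjusted p was 0.147. TRPV1 was found in 54.8% of PENK-positive and 35.1% of PENK-free spots. After thinning, 27.4% of PENK-positive spots held TRPV1 against 15.5% of PENK-free spots and 19.4% of those poorest in neuron markers. Of the 62 spots 34 held TRPV1, and 13 held it with TRPM8.

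The other sensory lists held few called genes, to be read against 0.351% of all genes called higher and 0.522% called lower. Of the genes of non-peptidergic and itch neurons 10 of 19 were tested and 0 called. At an unadjusted p under 0.05, edgeR had 1 higher and 2 lower, and JAK1, a kinase of cytokine signalling, was at 307 ± 36.3 and 222 ± 13.5 CPM (SD, n = 3) without passing. Of 20 large-fibre genes 11 were tested and 1 was lower: PVALB, the calcium buffer of proprioceptors, at 334, 767 and 213 CPM in PENK-positive spots against 430, 770 and 521 CPM in PENK-free spots. The values of the male specimen were almost the same, and the log2 ratio was -0.59 (SE 0.14, edgeR adjusted p = 0.00261). Neither DESeq2 nor limma-voom called PVALB, nor did edgeR without female 1 or female 2 (adjusted p of 0.0668 and 0.946). NEFH, the heavy neurofilament of large neurons, was at 6135 ± 2685 and 7167 ± 1208 CPM without passing.

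Of the list of C-fibre touch and cold genes only TRPM8 and TAFA4 reached the test, and TRPM8 was called. TAFA4 stood at 8.75 ± 3.63 and 8.65 ± 3.35 CPM (SD, n = 3). Of the 15 transcription factors 6 were tested and 0 called, and edgeR had 0 at an unadjusted p under 0.05 in either direction. TLX3, a factor of sensory lineages, was at 123 ± 2.07 and 116 ± 7.82 CPM. Of 20 immediate early and injury genes 6 were tested and 0 called, with 3 lower at an unadjusted p under 0.05 by edgeR. For DESeq2 and limma-voom no member of these lists other than TRPM8 was called.

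No difference in the share of neuron transcripts was shown between the classes by a sign-flip test over specimens, which cannot reach 0.05 with 3 of them. The 13 measured neuron markers made up 2.77%, 3.28% and 2.55% of UMIs summed over PENK-positive spots of female 1, male 1 and female 2. In PENK-free spots they made up 2.68%, 2.78% and 2.84%. The difference was 0.0964 percentage points (SD 0.399, n = 3; exact two-sided sign-flip permutation p = 0.75, with 0.25 the smallest p that 3 specimens allow). It was positive in 2 of 3 specimens, and 31 of the 62 spots were above the median of their section. Among the markers, the intermediate filament INA was higher, at 523 ± 57.8 against 333 ± 10.2 CPM (SD, n = 3; log2 ratio 0.58, edgeR adjusted p = 0.00149), with no overlap. The calcium sensor VSNL1 was lower, at 359 ± 159 against 497 ± 43.5 CPM (log2 ratio -0.64, edgeR adjusted p = 0.00107), with overlap. Neither was called by DESeq2 (adjusted p of 0.0956 and 0.809) or limma-voom (0.248 and 0.457). Fewer cells of a type and less RNA per cell cannot be told apart in such sums.

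Markers of connective tissue were lower in PENK-positive spots. Of 11 fibroblast markers 9 were tested, and 6 were called lower and 0 higher, against 0.522% of all genes called lower. They were the apolipoprotein APOD, the matrix proteoglycans DCN and LUM, the growth factor binding protein IGFBP6, the collagen COL1A1 and the matrix protein FBLN1. DCN stood at 227, 111 and 116 CPM in PENK-positive spots of female 1, male 1 and female 2, against 511, 363 and 151 CPM in PENK-free spots. It was lower in each specimen although the classes overlapped, with a log2 ratio of -1.14 (SE 0.17, edgeR adjusted p = 1.12e-08). APOD was at 1456 ± 377 and 2503 ± 944 CPM (SD, n = 3), a log2 ratio of -0.81. FBLN1 had 0 UMIs in PENK-positive spots against 777 in PENK-free spots, at least 4.34-fold lower when 3 counts are taken as the upper limit over the group. LUM, COL1A1 and IGFBP6 were lower in 2 of 3 specimens, and in female 2 each was higher in PENK-positive spots. Of the 6, DESeq2 called DCN and APOD and limma-voom called none. The median log2 ratio of the list was -0.99, against -0.07 over all genes.

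As a summed list, fibroblast markers were at 2885, 1857 and 1540 CPM in PENK-positive spots and at 5287, 3900 and 1932 CPM in PENK-free spots, lower in 3 of 3 specimens. APOD alone made up most of these sums. The lists of satellite glia, smooth muscle, immune cells and adipocytes were also lower in 3 of 3. For adipocytes the values of female 2 were almost the same, at 2407 and 2460 CPM. No immune or adipocyte marker was called. Satellite glia markers were at 4107 ± 643 and 5329 ± 773 CPM, and smooth muscle markers at 105 ± 66.3 and 237 ± 88.6 CPM (SD, n = 3). Schwann cell and endothelial markers were lower in 2 of 3. Single members called lower included the satellite glia gene APOE (3065 ± 700 and 4086 ± 471 CPM), which made up most of its list's mean sum, and the muscle light chain MYL9 (29.0 ± 22.4 and 81.0 ± 40.1 CPM). Both overlapped between the classes and were called by edgeR alone (DESeq2 adjusted p of 0.306 and 0.801). Of the red blood cell list the 2 measured markers had 0 UMIs in PENK-positive spots, and skeletal muscle markers had 2. The part of this mixture in the gene differences was not tested. Among spots at or above their section's median share of neuron markers, which keep 31 of the 62 PENK-positive spots, ENTPD3, TRPM8, COLQ and HPCAL1 had log2 ratios of 2.16, 3.82, 2.79 and 1.36 and passed in edgeR. In those spots the nociceptor channels SCN9A and TRPV1, at log2 ratios of 1.40 and 0.88, did not pass in edgeR (adjusted p of 0.0531 and 0.0801). PTGDS, an enzyme of prostaglandin synthesis, MGP, a matrix protein, and MYL9, at log2 ratios of -0.45, -1.66 and -0.66, did not pass either (edgeR adjusted p of 0.685, 0.736 and 0.775).

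**Figure D5:**
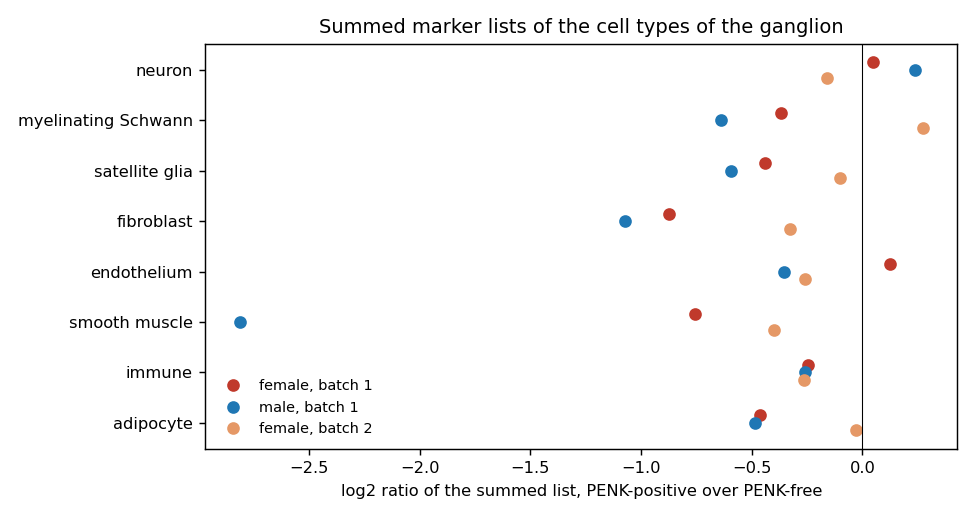
Log2 ratio (horizontal axis) of the summed marker lists of 8 cell types, PENK-positive over PENK-free spots, 1 point per specimen. The fibroblast, satellite glia, smooth muscle, immune and adipocyte lists lie left of 0 in all 3 specimens, and the neuron list lies on both sides.

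The largest named decreases with the same direction in every specimen were FBLN1, MGP, SFRP4, C9orf72, CYBRD1, MYL9, PTGDS and RASGRP2. PTGDS was at 181, 101 and 69.6 CPM in PENK-positive spots of female 1, male 1 and female 2, and at 377, 509 and 91.2 CPM in PENK-free spots (log2 ratio -1.30, SE 0.18, edgeR adjusted p = 6.76e-10). It was the only one of the 8 genes that DESeq2 called. By section, PTGDS was lower in PENK-positive spots in 5 of 8 and higher in 3. SFRP4, a secreted Wnt antagonist, was at 38.4, 20.2 and 4.64 CPM against 140, 159 and 5.92 CPM. In female 2 SFRP4 was thus low in both classes. MGP was at 11.5, 10.1 and 4.64 CPM against 53.3, 42.1 and 20.1 CPM, with no overlap, from 5 UMIs in PENK-positive spots. C9orf72, whose product takes part in membrane trafficking, was at 28.9 ± 9.96 and 64.5 ± 7.92 CPM, RASGRP2, an activator of small GTPases, at 33.8 ± 14.6 and 70.6 ± 13.7 CPM, and CYBRD1, an iron reductase, at 26.6 ± 14.5 and 52.7 ± 11.1 CPM (SD, n = 3). None of these 3 overlapped between the classes, but each rested on 13 to 17 UMIs in PENK-positive spots and none was called by DESeq2 or limma-voom. Without female 1 edgeR called none of these 3, nor FBLN1, MGP or MYL9 (adjusted p between 0.389 and 1.00), and without female 2 again none of these 3. MYL9 also lost its edgeR call without male 1 (adjusted p = 0.110).

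Whether a gene difference itself differed by batch or sex was tested as an interaction (edgeR, Benjamini-Hochberg). By batch 2 of 9961 genes passed (0.0201%) and by sex 3 (0.0301%), among them TRPV1 and SCG2, which were both lower in PENK-positive spots of male 1 and higher in those of both females. Only 1 male specimen entered, so sex and specimen cannot be told apart.

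The distance to the tissue border depended on the PENK threshold. PENK-positive spots lay on average 4.36, 3.00 and 4.79 grid steps from the tissue border in female 1, male 1 and female 2, and PENK-free spots 3.31, 3.98 and 4.14 steps. The difference was 0.242 steps (SD 1.07, n = 3; exact two-sided sign-flip permutation p = 0.75, smallest possible 0.25). With at least 3 PENK UMIs, a threshold added after the data were seen, PENK-positive spots lay at 4.93, 5 and 4.89 steps and PENK-free spots of the same sections at 3.50, 3.98 and 4.26 steps. In male 1 the value for PENK-positive spots rested on 2 spots, at 8 and 2 steps. With that threshold the difference was 1.03 steps (SD 0.403, n = 3), positive in 3 of 3 specimens. It was at the smallest p that the exact two-sided sign-flip test allows (0.25).

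A section outside this species gave a second reading of the same genes. Of the 4 sections labelled *Papio anubis* or *Macaca mulatta*, only section 2 labelled *P. anubis* had more than 4 eligible spots. Its gene identifiers carry the Ensembl prefix of *M. mulatta*, so its label and files may be crossed, and its species is given here as labelled. Of its 1218 eligible spots 57 (4.68%) were PENK-positive and 1041 PENK-free, with median depths of 12362 and 7277 UMIs. As 1 section it allows no test, and the intervals are exact Poisson intervals that cover counting error only. TRPM8 was at 233 CPM in PENK-positive spots (95% interval 199 to 270) and 28.2 CPM in PENK-free spots (24.9 to 31.8). ENTPD3 was at 198 CPM (167 to 233) and 49.4 CPM (45.0 to 54.2), and HPCAL1 at 308 CPM (269 to 350) and 105 CPM (98.3 to 112). SCTR had 17 UMIs in PENK-positive and 11 in PENK-free spots, or 22.7 and 1.18 CPM.

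Not all genes had the values of the macaque specimens in that section. TAC1 was at 2181 and 1003 CPM there, whereas it was not called in *M. fascicularis*, and TRPV1 had 0 and 2 UMIs, too few to compare. SCN9A was at 181 and 194 CPM and PVALB at 508 and 487 CPM, so neither followed the direction of the macaque specimens beyond counting error. COLQ was not analysed there. Of the 73 called genes that could be matched by symbol, 64 (87.7%) had the same direction in that section, against 54.8% of all 8215 matched genes. Of the 31 called higher 27 were higher there (47.3% for all genes that were above 0 in the macaque), and of the 42 called lower 37 were lower there (60.3% for all genes below 0). No test was made between the species.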

How the data were processed

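Visium UMI counts were analysed for 15 *Macaca fascicularis* sections and read off in 4 sections labelled with other species. The authors deposited raw UMI counts from Space Ranger (version 2.0.0 for batch 1, 2.1.0 for batch 2), per the file headers. The submitters' processing notes name the build Mmul_10, while the deposited gene identifiers have the *M. fascicularis* Ensembl prefix, so no coordinates are given. Of 22000 features 15068 carried a symbol; features without one took 18.6% to 23.3% of the UMIs in a section and were kept. Moran's I scores and their p-values are the authors' deposited values. UMI totals under tissue were between 1136430 and 7073130 per section.

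Only spots under tissue with at least 2000 UMIs were used. Counts were summed per title code and class and tested with edgeR 4.0.16 (TMM, filterByExpr, quasi-likelihood, title code as block), with PENK left out of the totals and test and Benjamini-Hochberg adjustment over all 9961 genes. DESeq2 1.42.0 and limma 3.58.1 were alternatives. CPM are counts scaled to 1000000 UMIs of the class. The design named 4 codes; the 3 with PENK-positive spots could be used, so "every specimen" means 3 of 3. The fit was also run on simulated counts drawn with 1 spread for all genes, so that run could not test genes that differ in spread. Spots were thinned to 2000 UMIs for shares. Named genes were the 12 largest higher and 8 largest lower called genes with a symbol, at least 20 CPM in the higher class and the same direction in every specimen, plus members of the gene lists that passed or were among their list's 3 highest. Genes named beyond these were chosen after their values were seen. The members, lists and rules were chosen with earlier results of these data known. No 2 sections of a code agreed within sampling noise (chi-square per degree of freedom at least 3.93), and the numbers of sections do not pair specimens. Some called genes are not reported here.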

Additional observations from a re-analysis of the deposited data

Results flagged for a closer look

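For 5 genes the difference between PENK-positive and PENK-free spots itself differed between specimens in an interaction test (edgeR quasi-likelihood with Benjamini-Hochberg adjustment, 1 residual degree of freedom). Between the batches these were 2 of 9961 genes (0.0201%; 390 at an unadjusted p under 0.05). PCP4, a small calmodulin-binding protein, had an interaction of -1.43 on the log2 scale (SE 0.27): it was at 501 CPM in PENK-positive and 1110 CPM in PENK-free spots of female 2, and at 473 and 399 CPM in female 1. The unnamed feature ENSMFAG00000062312 had an interaction of -4.78, from 19, 0 and 1 UMIs in PENK-positive spots of the 3 specimens.

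Between the sexes these were 3 genes (0.0301%; 485 at an unadjusted p under 0.05). TRPV1 had an interaction of 3.96 (SE 0.65, adjusted p under edgeR of 9.87e-06), SCG2 of 1.57 (SE 0.33) and DRG1, a GTP-binding protein, of 12.2, where the male PENK-positive spots had 0 UMIs and the value depends on the prior count. Only 1 male specimen, with 8 PENK-positive spots of 1 section, entered, so sex and specimen cannot be told apart.

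In section 2 labelled *Papio anubis* PENK was at 34.5 CPM over eligible spots, above the highest *M. fascicularis* section at 21.4 CPM. The species were not compared by a test.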

How the results depend on the processing

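The number of called genes, 87, depended on the settings. It was 82 with RLE size factors, of which 43 were higher and 39 lower (52.4% higher against 40.2%), 16 with DESeq2, 10 with limma-voom, 72 without a low-count filter and 0 without a block for the title code (352 at an unadjusted p under 0.05 by edgeR). It was 55 with sections as samples and 67 with sections as samples and a replicate block of the section number; these numbers pair nothing, as they only name sections. It was 72 with at least 3 PENK UMIs, 23 with at least 1, 114 with a minimum of 1000 UMIs per spot and 51 with 5000, 16 with spots thinned to 2000 UMIs, 25 within the middle 50% of UMIs and 46 in spots at or above the section median of neuron markers. Leaving out a section gave between 27 and 106, and leaving out a specimen between 21 and 58: 27 without section 4 and 48 without any section of female 2, 50 without section 3 and 21 without any section of female 1, and 58 without male 1. ENTPD3, COLQ and HPCAL1 passed in 24 of 25 alternatives and TRPM8 in 23 of 24, all failing without the block, with log2 ratios of 1.41 to 2.39, 2.22 to 3.28, 0.79 to 1.68 and 3.13 to 3.99. TRPV1 passed in 18 of 25 (adjusted p up to 1), SCN9A in 13, SCG2 in 17 and PVALB in 13. With at least 1 PENK UMI, FBLN1 (0.19) and PVALB (0.037) were above 0 on the log2 scale, neither called.

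Batch interactions were 4 without the filter, 1 within the middle 50% of UMIs and 3 with the replicate block; sex interactions were 1, 0 and 1 (340 at an unadjusted p under 0.05 for the 0, by edgeR). The neuron share difference was -0.105 without male 1, -0.0567 with at least 1 PENK UMI and -0.0353 within the middle 50% of UMIs, and without each specimen it lay between -0.105 and 0.293. The border difference of 0.242 steps was -0.0181 within the middle 50% and lay between -0.160 and 0.852 without each specimen. In alternatives added after the data were seen it was 1.03 with at least 3 PENK UMIs, 0.0804 with at least 1, 0.198 from 1000 UMIs and -0.187 from 5000. Depth limits the rarest genes called by all 3 tools, SCTR and GRM3, which rested on 12 UMIs each in 62 spots.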
